A study of Mus musculus with 2 samples.

Results

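The 10 genes described here encode ligands and receptors of vessel growth and of the exchange between vessel lining and mural cells, namely Vegfa, Kdr, Flt1, Angpt1, Angpt2, Tek, Pdgfb, Pdgfrb, Notch3 and Jag1. They were taken by symbol from the 31053 genes of the count tables, and all 10 were found. Periodontal tissue, gingiva together with cells from the alveolar bone surface, was examined in wild-type C57BL/6 mice aged 8 weeks by droplet single-cell RNA sequencing. The LIP library held cells from mice with ligature-induced periodontitis, in which a ligature around the tooth had been in place for 7 days, and the control library held cells from mice without a ligature. Each library pooled the cells of 5 mice, so there was 1 library per condition, no spread between animals could be measured, and no test between conditions was possible. Every interval below is an exact 95% interval that covers counting error alone.

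Vascular endothelial growth factor A, encoded by Vegfa, is read by endothelial cells through the receptor VEGFR2 (Kdr), while VEGFR1 (Flt1) binds the same ligand tightly and signals weakly. Angiopoietin 1 and angiopoietin 2 (Angpt1, Angpt2) meet on the receptor TIE2 (Tek), the former known for keeping vessels quiet and the latter for loosening that state. Platelet-derived growth factor B (Pdgfb) from endothelium recruits mural cells, that is pericytes and vascular smooth muscle cells, through their receptor PDGFRβ (Pdgfrb), and the Notch ligand Jagged1 (Jag1) acts on the mural receptor NOTCH3 (Notch3).

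Upstream sequence is shown for Kdr, Flt1 and Tek, the 3 receptors that shared the endothelial cells in these data. RefSeq promoter entries on GRCm38.p6 matched 6 of the 10 genes. Each window below holds the 250 bases before the start in RefSeq, of which 3 in the Kdr window lie in an exon annotated by GENCODE, read 5′ to 3′ on the strand of the gene, and capitals mark GGAAG or its reverse complement CTTCC, a core that ETS family factors of endothelial cells are known to bind. The windows lie at chr5:75978456-75978705 on the minus strand for Kdr, at chr5:147726012-147726261 on the minus strand for Flt1 and at chr4:94739039-94739288 on the plus strand for Tek.
Kdr: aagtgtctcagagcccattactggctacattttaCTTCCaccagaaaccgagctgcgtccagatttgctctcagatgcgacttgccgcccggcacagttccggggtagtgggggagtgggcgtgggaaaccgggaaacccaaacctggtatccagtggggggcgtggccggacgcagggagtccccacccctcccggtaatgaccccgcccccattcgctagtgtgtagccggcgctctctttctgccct
Flt1: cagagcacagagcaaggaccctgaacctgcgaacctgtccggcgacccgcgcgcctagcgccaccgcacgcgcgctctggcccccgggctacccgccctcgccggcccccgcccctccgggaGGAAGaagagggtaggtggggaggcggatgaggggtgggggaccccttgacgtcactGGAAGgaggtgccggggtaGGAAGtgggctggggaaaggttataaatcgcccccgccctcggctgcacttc
Tek: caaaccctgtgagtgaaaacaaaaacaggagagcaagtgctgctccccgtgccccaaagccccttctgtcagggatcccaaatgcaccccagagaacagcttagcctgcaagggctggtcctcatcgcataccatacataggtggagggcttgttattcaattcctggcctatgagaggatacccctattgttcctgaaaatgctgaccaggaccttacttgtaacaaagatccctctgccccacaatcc
The Kdr window held 1 match, on the opposite strand, and the Flt1 window 3, all on the strand of the gene. The Tek window held 0 matches, which says only that these letters are not in those 250 bases. One or more matches stood in 64.1% of 32536 such windows of all genes, so the matches do not set Kdr and Flt1 apart.

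The tables held 14236327 unique molecular identifiers (UMIs, counted RNA molecules) in 1212 barcodes for LIP and 16472915 in 1169 barcodes for control. Barcodes with 200 to 7500 genes, at most 60000 UMIs and at most 10% mitochondrial UMIs were kept, which left 936 LIP and 883 control cells with a median of 5595 and 10845 UMIs, and 2 barcode sequences occurred in both libraries, 1 of them among the kept cells. Cells were clustered without the 10 genes and without 32 related genes of the same pathways, and 14 classes were named from marker genes as "X-like". The vascular endothelial-like class held 79 LIP and 48 control cells. Its 11 markers, such as Pecam1 and Cdh5, were all present and summed to 11733 CPM in LIP and 9643 CPM in control. Presence alone does not tell classes apart, since LIP neutrophil-like cells also held all 11, at 29.6 CPM in sum. The mural-like class held 45 LIP and 46 control cells with all 14 of its markers, such as Rgs5 and Acta2, at 43451 and 47251 CPM in sum. Epithelial-like cells also held all 14, at 695 and 422 CPM. The level of a gene in a class, in CPM, is its share of all UMIs of the class scaled to 1000000, and no length correction applies because the 3′ chemistry counts 1 end of each RNA.

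Flt1, Kdr and Tek were highest in vascular endothelial-like cells and Pdgfrb and Notch3 in mural-like cells, in both libraries among the 10 classes with at least 15 cells in each. For Pdgfrb in control, however, mural-like cells at 279 CPM and osteogenic-like cells at 266 CPM had intervals that overlapped. Neutrophil-like cells gave the background of stray RNA, with a UMI of Kdr in 0.619% of 323 LIP cells, of Tek in 0.929%, of Notch3 in 0.619% and of Flt1 in 1.24%. Pdgfrb was found in 0 of these 323 cells, which for that gene leaves room for a share of 0.929%. Among the 53 control neutrophil-like cells, Kdr and Notch3 were each found in 1.89%. These cells had 3860 UMIs at the median, compared with 8504 in the vascular endothelial-like and 12344 in the mural-like cells of that library. When every cell was thinned to 1000 UMIs, Kdr was still found in 40.3% of LIP vascular endothelial-like cells and Notch3 in 68.9% of LIP mural-like cells, and both were at 0 in neutrophil-like cells.

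**Figure D1:**
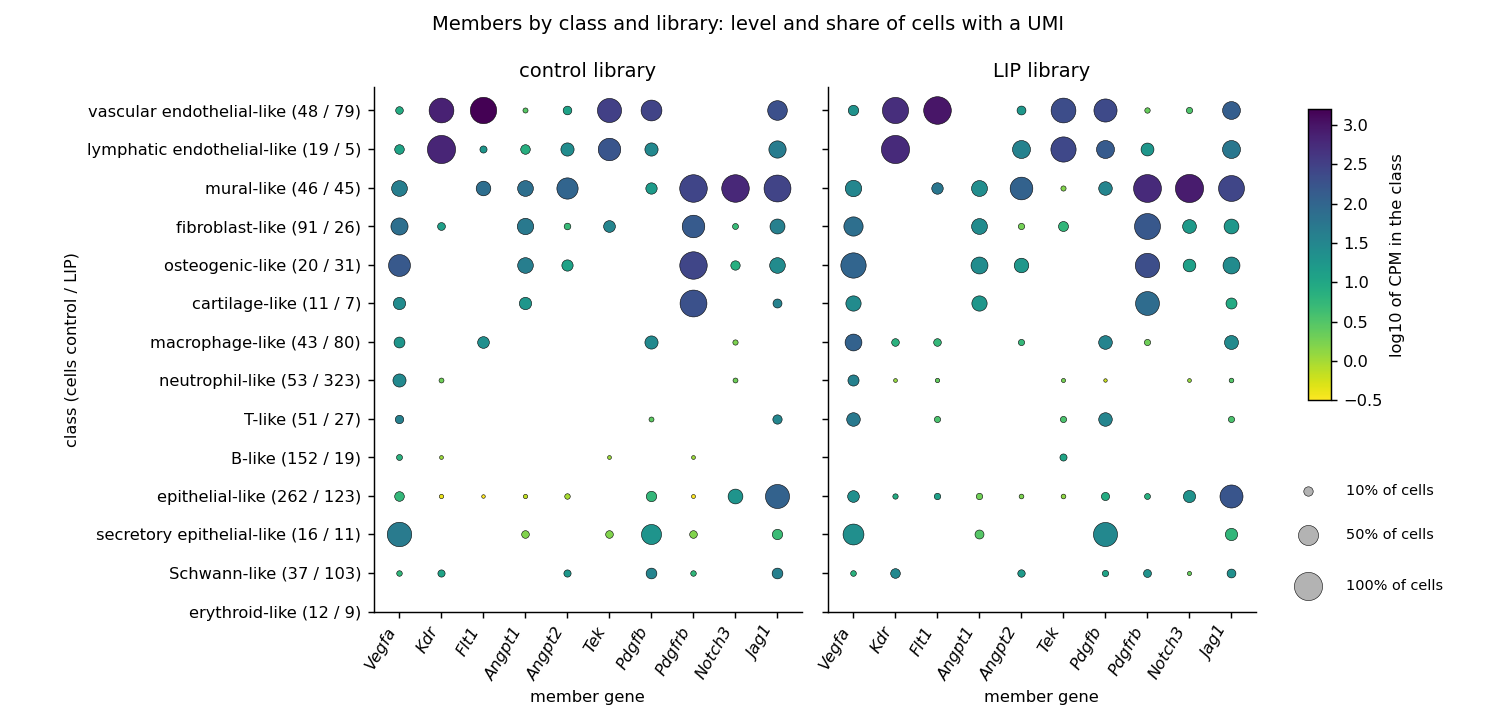
Level and spread of the 10 genes over 14 classes, control library on the left and LIP library on the right. Rows are classes with their numbers of control and LIP cells, the colour is log10 of CPM, the area of a dot grows with the share of cells holding a UMI, and no dot is drawn at 0 UMIs. Kdr and Tek are highest in the endothelial rows, Flt1 in the vascular endothelial-like row and Notch3 in the mural-like row. Pdgfrb stands in the mural-like, osteogenic-like, fibroblast-like and cartilage-like rows, and Vegfa and Jag1 run across many rows.

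Flt1 was the most abundant of the 10 genes in vascular endothelial-like cells. It reached 989 CPM (924 to 1058) in LIP and 1597 CPM (1466 to 1736) in control, from 859 and 551 UMIs. Kdr was next, at 525 CPM (478 to 576) in LIP and 722 CPM (635 to 817) in control. Tek stood at 219 CPM (189 to 252) and 316 CPM (259 to 381). All 3 receptors were therefore lower in the LIP library, and none by as much as 2-fold. The log2 ratio of LIP over control was -0.69 for Flt1 (-0.85 to -0.53), -0.46 for Kdr (-0.68 to -0.23) and -0.53 for Tek (-0.88 to -0.18). One control cell held 75 of the 249 control UMIs of Kdr, 109 of the 551 of Flt1 and 16 of the 109 of Tek. Without the cell with the most UMIs in each library the Kdr ratio was -0.14 (-0.39 to 0.13). With each cell weighing the same, the LIP and control levels of all 3 were closer. They were 1168 and 1535 CPM for Flt1, 567 and 617 CPM for Kdr and 242 and 284 CPM for Tek. Epithelial markers summed to 122 CPM in these LIP cells and 704 CPM in these control cells, with 10 and 11 of the 14 listed genes found. Macrophage markers summed to 669 and 1698 CPM, with 3 and 2 of 11 found, and the part of either list in the result was not tested.

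The 3 endothelial receptors were found together in single cells. Of the 79 LIP vascular endothelial-like cells, 56 held UMIs of Kdr, Flt1 and Tek at once (70.9%), 11 held Kdr and Flt1 without Tek, and 2 held none of them. Of the 48 control cells, 27 held all 3 (56.2%) and 2 held none. The median depth of the class was 8504 UMIs in LIP and 5784.5 in control, so the difference in these shares cannot be told apart from depth.

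Kdr and Tek also marked lymphatic endothelial-like cells, which number only 5 in LIP and 19 in control. Kdr stood there at 572 CPM (391 to 808) in LIP and 664 CPM (570 to 770) in control, and in the latter library these 19 cells held 39.5% of all Kdr UMIs. Tek stood at 250 CPM (137 to 420) and 166 CPM (121 to 223). Flt1, in contrast, had 0 UMIs in the LIP cells and 5 in the control cells, all 5 from a single cell, so VEGFR1 RNA was at or near 0 in these few lymphatic cells.

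**Figure D2:**
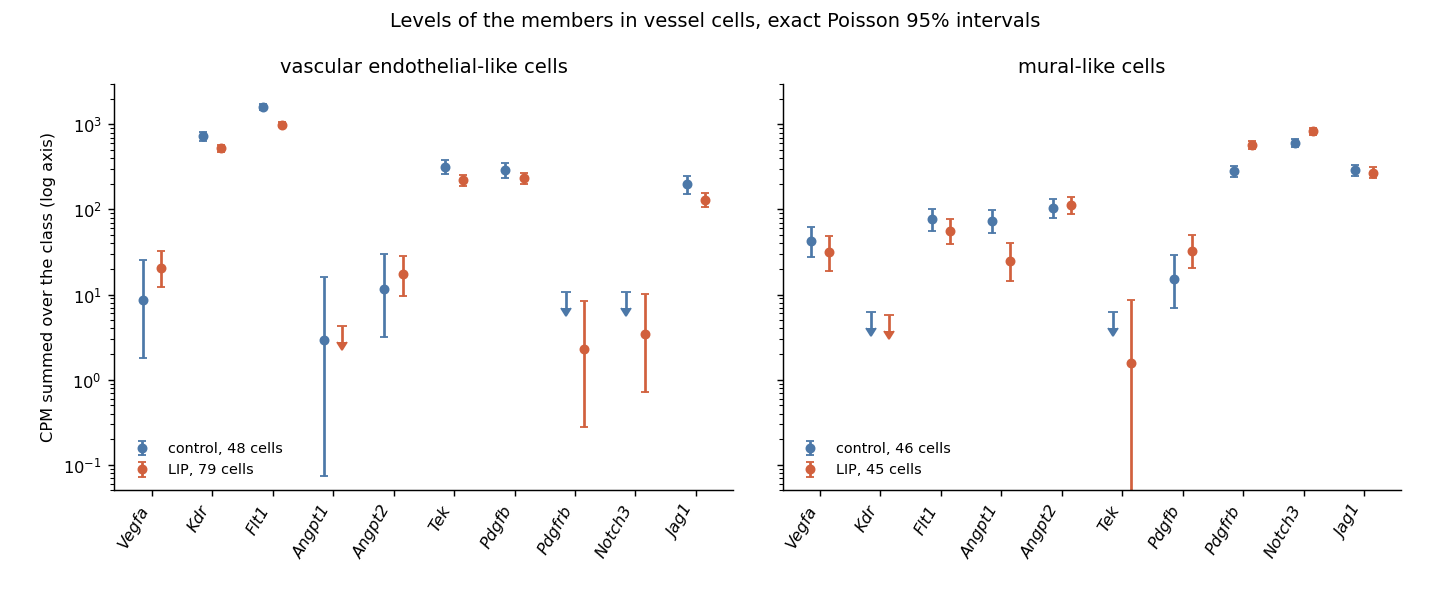
CPM of the 10 genes in vascular endothelial-like cells (left) and mural-like cells (right) on a log axis, blue for control and red for LIP, with exact Poisson 95% intervals as bars. Arrows mark the upper limit where no UMI was found. Flt1, Kdr and Tek lie lower in LIP on the left, and Pdgfrb and Notch3 lie higher in LIP on the right.

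Vegfa, the ligand for Kdr and Flt1, came from outside the vessel wall for the most part. In the control library the largest shares of its 265 UMIs lay in fibroblast-like cells (26.8%), epithelial-like cells (15.5%) and osteogenic-like cells (15.1%). Secretory epithelial-like cells held 30 of these UMIs and mural-like cells 25, while macrophage-like cells held 4.15%. In the LIP library, 33.2% of 491 UMIs lay in macrophage-like cells (29.0% to 37.6%), 17.9% in osteogenic-like cells, 14.3% in epithelial-like cells and 12.6% in neutrophil-like cells. Vascular endothelial-like cells held 3.67% in LIP and 1.13% in control. The macrophage-like share of the ligand was thus larger in LIP, where this class made up 8.55% of kept cells, against 4.87% in control.

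Per RNA molecule, too, macrophage-like cells had more Vegfa in the LIP library. The level was 111 CPM (94.8 to 130) from 163 UMIs in LIP and 18.5 CPM (9.22 to 33.1) from 11 UMIs in control, a log2 ratio of 2.59 (1.71 to 3.62). A Vegfa UMI was found in 28 of 80 LIP cells (35.0%) and 6 of 43 control cells (14.0%), and the cell with most of it held 27 of the 163 LIP UMIs. The makeup of the class differed between the libraries. Osteoclast markers, led by Acp5 with 1223 UMIs, summed to 1043 CPM in LIP and 36.9 CPM in control, mast cell markers to 47.8 and 710 CPM, and dendritic markers to 237 and 1250 CPM. Osteogenic markers summed to 2362 CPM in LIP and 92.4 CPM in control, with 9 and 8 of 13 found, and their part was not tested. When each cell was named on its own by its summed markers, 19 of the 80 LIP cells took the osteoclast name and none of the 43 control cells did, and those 19 cells held 102 of the 163 Vegfa UMIs. The 31 LIP cells that kept the macrophage name held 25 of those UMIs. Over all cells that took the macrophage name in that way, the log2 ratio was 0.63 (-0.55 to 1.98), an interval that spanned 0. The makeup of the class and the ligature cannot be told apart.

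Mesenchymal cells had Vegfa in both libraries. Osteogenic-like cells stood at 103 CPM (82.5 to 127) in LIP and 154 CPM (110 to 210) in control, with a UMI in 25 of 31 and 12 of 20 cells. The log2 ratio was -0.58 (-1.14 to -0.01), and over all genes of that class the median ratio was itself -0.14. Fibroblast-like cells stood at 72.0 and 72.3 CPM, a log2 ratio of -0.01 (-0.62 to 0.59). Neutrophil-like cells, the largest LIP class with 323 cells, stood at 38.3 CPM (29.3 to 49.0) in LIP and 28.6 CPM (15.6 to 48.0) in control. The log2 ratio of 0.42 (-0.43 to 1.37) spanned 0, and with each cell weighing the same it was -0.63. They made up 34.5% of LIP and 6.00% of control cells and held 12.6% and 5.28% of the Vegfa UMIs.

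Epithelial-like cells had 23.5 CPM of Vegfa (18.3 to 29.7) in LIP and 5.58 CPM (4.001 to 7.56) in control, a log2 ratio of 2.08 (1.5 to 2.67). The 2 richest LIP cells held 23 and 18 of the 70 UMIs, and without the richest cell in each library the ratio was 1.71 (1.05 to 2.38). Both of those cells carried keratins, with 949 and 302 UMIs of Krt14. At a clustering resolution of 0.3 the ratio was 0.79 (-0.05 to 1.61). Within the endothelium, Vegfa lay in the arterial sub-cluster described below, with 16 of 18 LIP UMIs and all 3 control UMIs.

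**Figure D3:**
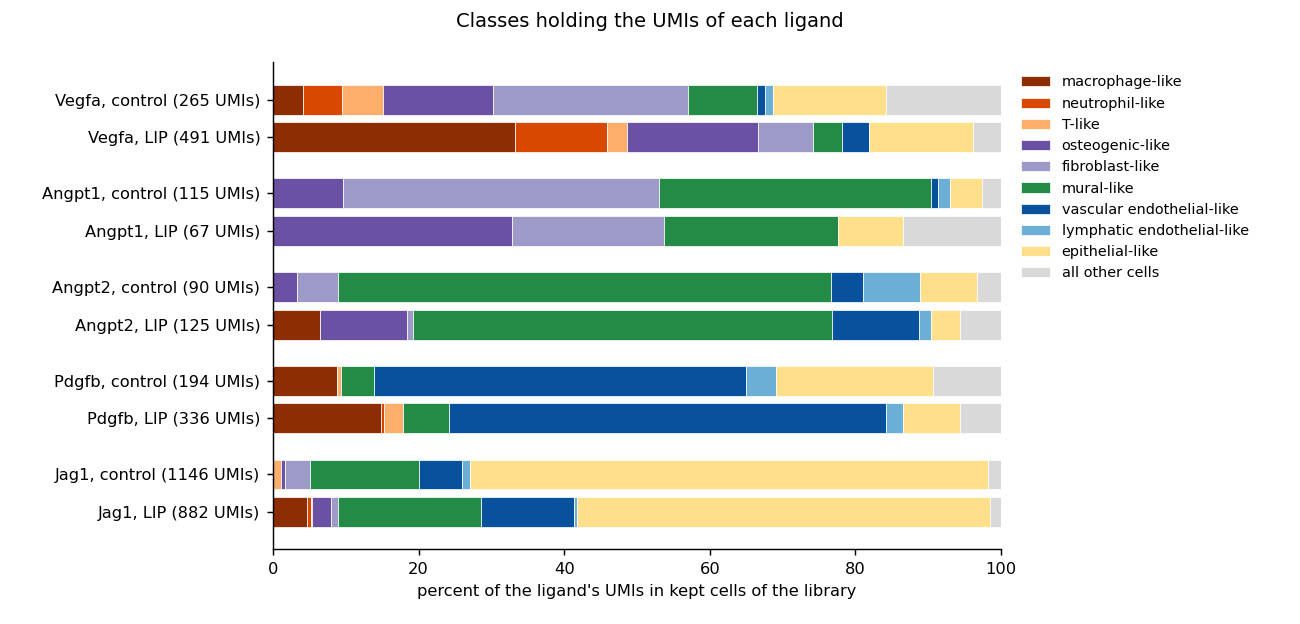
Share of the UMIs of each ligand by class, 1 bar per ligand and library, with the total number of UMIs in the label. Macrophage-like cells hold 33.2% of Vegfa in LIP and 4.15% in control, mural-like cells hold most of Angpt2, vascular endothelial-like cells hold most of Pdgfb and epithelial-like cells hold most of Jag1.

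Angpt1 and Angpt2 had sources that overlapped in mural-like cells. Angpt1 lay in fibroblast-like, mural-like and osteogenic-like cells, which held 43.5%, 37.4% and 9.57% of its 115 control UMIs and 20.9%, 23.9% and 32.8% of its 67 LIP UMIs. Angpt2 was a mural gene here, since mural-like cells held 67.8% of 90 control and 57.6% of 125 LIP UMIs. Neither ligand had a UMI in the 323 LIP or the 53 control neutrophil-like cells, and vascular endothelial-like cells, a known source of stored angiopoietin 2, had 17.3 CPM of Angpt2 in LIP and 11.6 CPM in control, from 15 and 4 UMIs.

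In mural-like cells the angiopoietins parted between the libraries. Angpt1 stood at 25.01 CPM (14.3 to 40.6) in LIP and 72.8 CPM (52.7 to 98.0) in control, a log2 ratio of -1.54 (-2.47 to -0.68). A UMI was found in 14 of 45 LIP and 14 of 46 control cells, so the number of cells with Angpt1 was the same and the control cells held more per cell. Angpt2 stood at 113 CPM (88.0 to 142) and 103 CPM (79.0 to 133), a log2 ratio of 0.12 (-0.39 to 0.64). The ratio of Angpt1 kept its sign and stayed between -1.57 and -1.36 in the 10 alternative settings that gave a value for it. A mitochondrial limit of 5% gave none, because under 15 mural-like cells were left in a library. Angpt1 was also below control in LIP fibroblast-like cells, at 27.3 against 50.9 CPM (log2 ratio -0.90, -1.87 to -0.02), and in osteogenic-like cells, at 25.7 against 42.4 CPM (-0.72, -1.83 to 0.47).

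Outside the endothelium, Tek had enough UMIs to be compared only in fibroblast-like cells. In control, 15 of 91 cells held 32 Tek UMIs, or 32.6 CPM (22.3 to 46.0), while 3 of 26 LIP cells held 3 UMIs, or 5.84 CPM (1.20 to 17.1). The log2 ratio was -2.48 (-4.83 to -0.80). No single cell carried the control value, since the richest had 4 UMIs. The 15 cells with Tek held 2 UMIs of Pecam1, 0 of Cdh5 and 7 of Kdr, and none was marked as a doublet. Only 1 of 936 LIP and 4 of 883 control cells were marked at all, so the lack of a mark says little. The makeup of the fibroblast-like class differed between the libraries, with osteogenic markers at 20980.3 CPM in LIP and 9154 CPM in control, cartilage markers at 753 and 10.2 CPM and Schwann markers at 1431 and 669 CPM. Their part in the lower Tek, Angpt1 and Jag1 of this class was not tested.

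Pdgfb was highest in the endothelium and its receptor in mural and other mesenchymal cells. Vascular endothelial-like cells held 60.1% of 336 LIP UMIs (54.7% to 65.4%) and 51.03% of 194 control UMIs. Their level was 233 CPM (202 to 267) in LIP and 287 CPM (233 to 349) in control, a log2 ratio of -0.30 (-0.66 to 0.06) that spanned 0. Macrophage-like cells held 34.1 CPM (25.3 to 44.98) in LIP and 28.6 CPM (16.6 to 45.7) in control, or 14.9% and 8.76% of the UMIs. Epithelial-like cells, at only 8.73 and 5.71 CPM, held 7.74% in LIP and 21.6% in control. In LIP, 15 of their 26 Pdgfb UMIs lay in 1 cell, which had 33 UMIs of Pecam1, 42 of Cdh5 and 1 of Krt5.

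The receptor Pdgfrb was higher in LIP than in control mural-like cells. It stood at 570 CPM (513 to 632) from 365 UMIs in LIP and 279 CPM (238.2 to 325) from 165 UMIs in control, a log2 ratio of 1.03 (0.76 to 1.30). Nearly every cell held it, 44 of 45 in LIP and 44 of 46 in control, so the share of cells with a UMI hardly differed. Pericyte-like cells, the sub-cluster richer in Pdgfrb described below, made up 23 of the 45 LIP and 19 of the 46 control cells. With every cell given the same weight the ratio was 0.68, under the 2-fold line, and it lay between 0.68 and 1.03 in the 10 alternatives that gave a value. The mitochondrial limit of 5%, which left under 15 mural-like cells in a library, gave none. Fibroblast markers summed to 5020 CPM in LIP and 3401 CPM in control mural-like cells and osteogenic markers to 2247 and 1048 CPM, and their part was not tested. Pdgfrb itself did not stand apart in those mesenchymal classes, at 158 against 142 CPM in fibroblast-like cells (log2 ratio 0.16, -0.26 to 0.56) and 211 against 266 CPM in osteogenic-like cells (-0.34, -0.75 to 0.08).

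Jag1 was found on both sides of the vessel wall and, in greater total amount, in the epithelium. Epithelial-like cells held 56.8% of 882 LIP UMIs and 71.2% of 1146 control UMIs. Mural-like cells had the highest level, 270 CPM (232 to 314) in LIP and 289 CPM (248 to 336) in control, followed in control by vascular endothelial-like cells at 197 CPM (153 to 250), whose interval met that of the mural-like cells. In LIP, epithelial-like cells at 168 CPM (154 to 184) stood above vascular endothelial-like cells at 130 CPM (107 to 156), and the intervals of these neighbours met. In control, epithelial-like cells had 111 CPM (103.5 to 118.8). Jag1 was thus higher in LIP in epithelium (log2 ratio 0.60, 0.44 to 0.76), lower in endothelium (-0.60, -1.05 to -0.14) and near 0 in mural-like cells (-0.10, -0.41 to 0.22). With each cell weighing the same, LIP and control were closer in epithelium, at 133 and 107 CPM, and further apart in endothelium, at 114 and 216 CPM. In LIP, 22 of the 501 epithelial-like Jag1 UMIs lay in a cell with 261 UMIs of Rgs5 and 1 of Krt5. The makeup of the epithelial-like class differed between the libraries, as given for Vegfa, and its part in the Jag1 ratio was not tested. Macrophage-like cells had 41 Jag1 UMIs in 19 of 80 LIP cells and 0 in 43 control cells. That is 5.55-fold higher in LIP against a floor of 3 UMIs over the control cells, and the log2 interval reached down to 2.11. The makeup of this class differed between the libraries, as given for Vegfa, and its part in Jag1 was not tested.

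Notch3, the receptor that takes Jag1 in mural cells, lay mostly in them. Mural-like cells held 85.7% of 617 LIP UMIs and 70.4% of 510 control UMIs, and most of the rest lay in epithelial-like cells at 21.2 CPM (16.3 to 27.1) in LIP and 19.2 CPM (16.1 to 22.6) in control. In mural-like cells Notch3 stood at 827 CPM (758 to 900) in LIP and 608 CPM (546 to 674) in control, a log2 ratio of 0.44 (0.25 to 0.64). All 45 LIP cells and 44 of 46 control cells held it. Jag1, Notch3 and Pdgfrb were found at once in 37 of 45 LIP and 39 of 46 control mural-like cells, so ligand and receptor of this pair stood in the same cells.

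Sub-clustering, again without the 10 genes, split the endothelium and the mural cells in a way that ordered several of them. An arterial endothelial-like sub-cluster (17 LIP and 11 control cells) carried all 8 arterial markers, with Sema3g, Sox17, Cldn5 and Gja4 as its leading genes, and a venous endothelial-like one (62 and 37 cells) all 6 venous markers, with Fabp4, Selp, Plvap and Emcn leading. The latter held all of the class outside the arterial sub-cluster and also carried 3 of 5 capillary, 3 of 8 arterial and 2 of 6 sprouting tip markers. Its name therefore does not mean veins alone. A smooth muscle-like sub-cluster (22 and 27 cells) and a pericyte-like one (23 and 19 cells) made up the mural-like class. The smooth muscle-like one carried all 8 smooth muscle markers and also 4 of 7 pericyte markers. The pericyte-like one carried all 7 pericyte markers and also 6 of 8 smooth muscle markers. Markers were counted against all remaining cells, not against the other sub-cluster, so these names do not mean pure cell types.

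Jag1 and Pdgfb leaned to the arterial sub-cluster and Kdr and Flt1 to the other, venous endothelial-like one, which includes cells with capillary markers. Jag1 stood at 383 CPM in arterial and 56.5 CPM in venous endothelial-like cells of LIP, and at 514 and 86.1 CPM in control, log2 ratios of arterial over venous of 2.76 (2.18 to 3.36) and 2.58 (1.82 to 3.38). Pdgfb gave 0.93 (0.49 to 1.35) and 0.83 (0.21 to 1.44). Flt1 gave -0.54 (-0.81 to -0.28) in LIP and -0.78 (-1.12 to -0.46) in control, and Kdr -0.57 (-0.94 to -0.21) and -2.08 (-2.84 to -1.41). Tek differed little, at -0.27 (-0.83 to 0.26) and 0.18 (-0.47 to 0.80). The arterial cells of control had only 19 Kdr UMIs, and Kdr was lower in LIP than in control in the venous sub-cluster (log2 ratio -0.67, -0.91 to -0.42) but higher in the arterial one (0.85, 0.11 to 1.66). In the venous sub-cluster, 1 control cell held 75 of the 230 control UMIs of Kdr and 109 of the 458 of Flt1. The values by sub-cluster were not redone without that cell.

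Among mural-like cells, Pdgfrb leaned to the pericyte side while the intervals of Notch3 and Jag1 spanned 0. Pdgfrb stood at 813 CPM in pericyte-like and 348 CPM in smooth muscle-like cells of LIP, and at 513 and 176 CPM in control, log2 ratios of 1.22 (0.90 to 1.56) and 1.55 (1.09 to 2.01). It was higher in LIP in both sub-clusters, by 0.66 (0.31 to 1.02) in pericyte-like and 0.99 (0.55 to 1.43) in smooth muscle-like cells. Neither reached the 2-fold line that the whole class passed at 1.03. Pericyte-like cells made up 23 of 45 LIP and 19 of 46 control mural-like cells, and the part of this makeup in the class ratio was not tested. The lower Angpt1 of LIP, by contrast, sat in pericyte-like cells, which had 6 UMIs (19.6 CPM) in LIP and 29 UMIs (160 CPM) in control, a log2 ratio of -3.03 (-4.59 to -1.74). Smooth muscle-like cells had 29.99 and 34.2 CPM (-0.19, -1.52 to 1.09). Angpt2 was lower in LIP pericyte-like cells, at 140 against 226 CPM (-0.69, -1.34 to -0.04), and stood at 87.0 and 48.8 CPM in smooth muscle-like cells (0.83, -0.04 to 1.73). The even level of Angpt2 over the whole mural-like class was thus made of values on opposite sides of 0.

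Pericyte-like cells also held Flt1, the VEGF receptor, without the other endothelial receptors. All 36 LIP UMIs of Flt1 in mural-like cells lay in 7 pericyte-like cells, and 43 of the 45 control UMIs lay in 10 of them. Those 7 LIP cells, and the 12 control mural-like cells with Flt1, had 0 UMIs of Kdr, Tek, Pecam1 and Cdh5. None was marked as a doublet, which says little because so few cells were marked at all. The whole list of 11 vascular markers summed to 565 CPM in those LIP cells and 453 CPM in the LIP mural-like cells without Flt1. The level was 118 CPM (82.3 to 163) in LIP and 237 CPM (172 to 320) in control pericyte-like cells, a log2 ratio of -1.01 (-1.70 to -0.34).

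**Figure D4:**
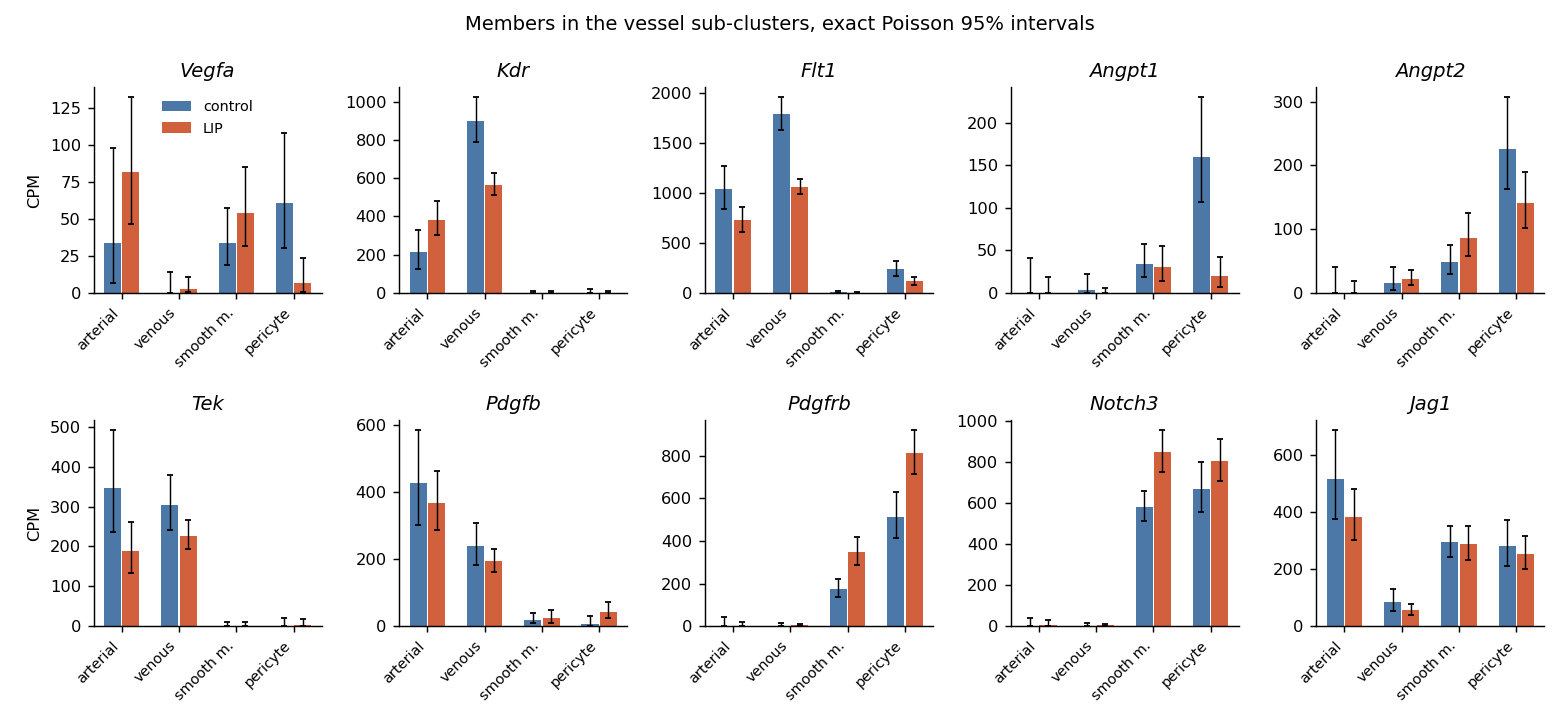
CPM of each gene in the arterial and venous endothelial-like, smooth muscle-like (smooth m.) and pericyte-like sub-clusters, blue for control and red for LIP, with exact Poisson 95% intervals. The scale differs between panels and starts at 0. Jag1 and Pdgfb are highest in arterial cells, Pdgfrb is higher in pericyte-like than in smooth muscle-like cells, Angpt1 stands out in control pericyte-like cells alone, and Flt1 reaches the pericyte-like cells at 118 and 237 CPM.

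Set against all genes, the 10 genes differed in both directions. With a rule of at least 20 UMIs over both libraries, 36 of the 100 combinations of a gene and a class could be compared, and the other 64 were under that limit. Of the 36, 9 were at least 2-fold higher in LIP and 4 at least 2-fold lower, where 7.73% and 6.97% of all 66445 gene and class combinations were. The median log2 ratio over the 36 was 0.06. Those higher were Vegfa, Kdr, Flt1 and Pdgfrb in epithelial-like cells, Vegfa and Jag1 in macrophage-like cells, Pdgfb and Pdgfrb in mural-like cells and Vegfa in vascular endothelial-like cells. Those lower were Angpt1 in mural-like cells, Tek and Jag1 in fibroblast-like cells and Flt1 in macrophage-like cells. Pdgfb in mural-like cells rested on 21 and 9 UMIs (log2 ratio 1.11, -0.08 to 2.42) and Vegfa in vascular endothelial-like cells on 18 and 3 (1.25, -0.52 to 3.66), so both intervals spanned 0.

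By class, the share past 2-fold among all genes was 8.04% higher and 5.42% lower in vascular endothelial-like cells, where 1 and 0 of 6 compared members were, with a median log2 ratio of -0.49 against 0.03 for all genes. In mural-like cells it was 5.78% and 4.91%, against 2 and 1 of 8 members, and both medians were near 0, at 0.01 and 0.03. In macrophage-like cells it was 9.41% and 5.83%, against 2 and 1 of 4 members. In epithelial-like cells it was 5.69% and 3.03%, against 4 and 0 of 7 members, and in fibroblast-like cells 4.41% and 7.12%, against 0 and 2 of 5. No member passed 2-fold in osteogenic-like cells (4 compared, 8.01% and 11.6% of all genes), in neutrophil-like cells (1 compared, 12.5% and 7.69%) or in T-like cells (1 compared, 10.4% and 8.19%), and none could be compared in B-like or Schwann-like cells.

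For 3 of the 4 epithelial-like entries, a few cells with hardly any keratin UMIs held most of the count. Kdr had 26 LIP UMIs there, of which 25 lay in 2 cells, and the same cells held 34 of the 39 Flt1 UMIs. They had 36 and 33 UMIs of Pecam1, 41 and 42 of Cdh5 and 1 each of Krt5, and they sat in a sub-cluster led by division genes, with 20 and 31 UMIs of Mki67. The richest Pdgfrb cell, with 13 of 22 UMIs, had 261 UMIs of Rgs5, 9 of Notch3 and 1 of Krt5 and lay in the same sub-cluster, and the next, with 7, had 1 UMI of Rgs5. None of these cells was marked as a doublet, which says little because only 5 cells were marked at all. When the 5 marked cells were removed, the rest were clustered anew, and the log2 ratios in the new epithelial-like class were 2.25 for Flt1 (-2.02 to 8.13), 1.25 for Kdr and 1.25 for Pdgfrb, and all 3 intervals spanned 0.

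**Figure D5:**
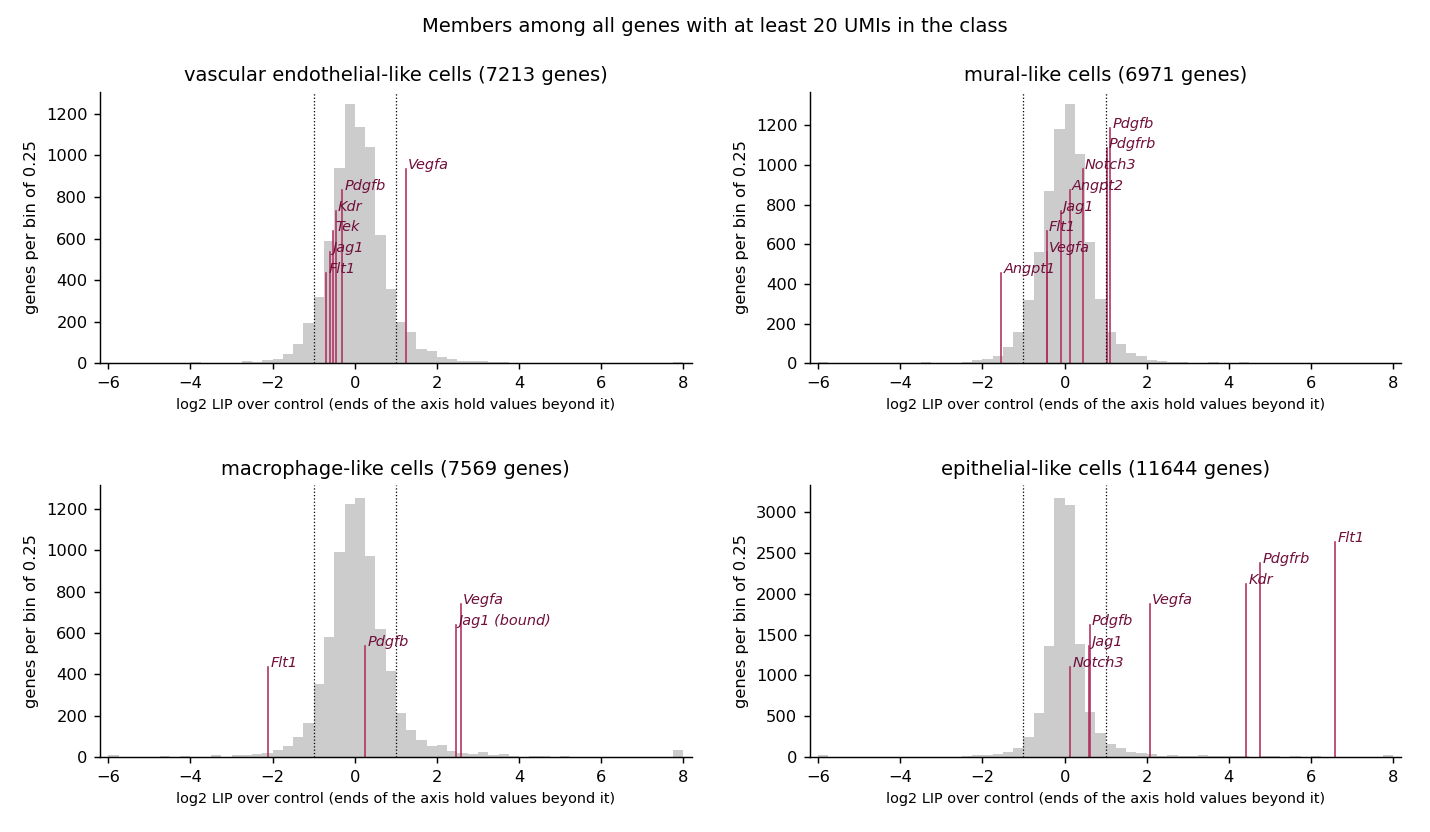
Log2 ratio of LIP over control for all genes with at least 20 UMIs in each of 4 classes (grey, genes per bin of 0.25), with the compared members as red lines and dotted lines at 2-fold. Vegfa and the bound for Jag1 lie to the right in macrophage-like cells, Pdgfb and Pdgfrb to the right and Angpt1 to the left in mural-like cells, and Kdr, Flt1 and Pdgfrb far to the right in epithelial-like cells.

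The 32 related genes were read in the same vessel classes. In mural-like cells 15 of the 32 reached 20 UMIs, 5 were at least 2-fold higher in LIP and 1 lower, where 5.78% and 4.91% of all genes were. The 5 were Pgf, which encodes placental growth factor, a ligand of VEGFR1, the co-receptors Nrp1 and Nrp2, and the Notch target genes Heyl and Hey1. Pgf stood at 155 CPM in LIP and 40.6 CPM in control (log2 ratio 1.93, 1.27 to 2.64), Nrp1 at 209 and 82.9 CPM (1.34, 0.85 to 1.84) and Heyl at 169 and 69.4 CPM (1.28, 0.75 to 1.84). The intervals of Nrp2 and Hey1, with 28 and 23 UMIs in all, spanned 0. With each cell weighing the same, Heyl stood at 159 and 86.9 CPM and Hey1 at 25.8 and 14.9 CPM, both under 2-fold. Pgf at 110 and 36.7 CPM, Nrp1 at 294 and 107 CPM and Nrp2 at 33.0 and 14.4 CPM stayed past it. The part of the makeup of the mural-like class in these values was not tested. The 1 lower gene was Pdgfd, a second ligand of PDGFRβ, at 15.6 and 38.9 CPM (-1.32, -2.55 to -0.19). The Notch targets did not go 1 way, since Hes1 stood at 506 CPM in LIP and 970 CPM in control (-0.94, -1.14 to -0.74), and Hey2 and Nrarp, named after their values were seen, at 70.3 and 60.9 CPM and at 111 and 117 CPM. By level, Pdgfa (528 and 366 CPM), Hes1, Nrp1, Heyl and Pgf were the top 5 of the related genes in LIP mural-like cells.

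In vascular endothelial-like cells 23 of the 32 related genes were compared and 0 passed 2-fold in either direction, where 8.04% and 5.42% of all genes did. No test was run on these libraries. With a 1.5-fold line 4 were higher and 4 lower. The share of all genes past 1.5-fold was not computed, so these counts cannot be read against the 2-fold shares. Ptprb, the phosphatase that acts on TIE2, was highest at 742 CPM in LIP and 1223 CPM in control (log2 ratio -0.72, -0.90 to -0.54). Aplnr, the apelin receptor, followed at 438 and 235 CPM (0.90, 0.55 to 1.26), then S1pr1 at 411 and 548 CPM, Tie1 at 396 and 327 CPM and Nrp1 at 374 and 707 CPM (-0.92, -1.16 to -0.67). The co-receptor Nrp1 was thus lower in LIP endothelium and higher in LIP mural-like cells. In endothelium, a single control cell held 55 of the 244 control UMIs of Nrp1, and for Ptprb the richest control cell held 69 of 422. With each cell weighing the same, the LIP and control levels were closer, at 477 and 650 CPM for Nrp1 and 888 and 1132 CPM for Ptprb. Those of Aplnr were further apart, at 387 and 153 CPM, which is past 2-fold. The count of related genes past 2-fold was not redone with that weighting.

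The genes whose levels followed each member most closely were read over 20 points, 10 classes in 2 libraries, among 13123 genes. These correlations are descriptions without a test, and the points share libraries and depth. Kdr was nearest to Sox18 (Pearson r = 0.97), Shroom4 and Podxl, Tek to Npr1 (0.98), Hspa12b and Abcb1a, Flt1 to Fabp4 (0.95), Akr1c14 and Ebf3 and Pdgfb to Kank3 (0.90), Rasa4 and Ehd4. Notch3 was nearest to Adra2a (0.97), Lmod1 and Cnn1, contractile mural genes in the last pair, and Pdgfrb to Rgs17 (0.97), Adamts2 and Vasn. Angpt1 was nearest to Shox2 (0.98), Foxf1 and Barx1, Angpt2 to Gm13889 (0.95), Rnd2 and Klhl23, Jag1 to Crim1 (0.91), Hspb1 and Kank1 and Vegfa, the most widely spread, to Surf4 (0.83), Ptges and Pde4d.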

How the data were processed

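Periodontal tissue of 1 LIP and 1 control pool was profiled with 10x 3′ v3 chemistry. The deposited values are UMI counts, which the authors made with Cell Ranger (3.1.0 in the matrix header) on mm10, with no normalization and no correction for free RNA found in them. The members and lists were chosen with earlier results of these data known. Kept cells were integrated and clustered in Seurat 5.3.0 (R 4.3.3) on 2000 variable features, members and related genes held out, using 30 dimensions, at resolution 0.1 and at 0.2 for sub-clusters. A class was named where at least 3 of its markers were over 2-fold above the remaining cells and in at least 25% of the cells of the sub-cluster. Among such names, the one with most markers in the 10 leading genes was taken. Scrublet marked 1 LIP and 4 control cells, which were kept. UMIs were summed per class and library, with exact Poisson intervals for CPM, Clopper-Pearson intervals for shares and exact conditional binomial intervals for ratios (scipy 1.17.1). Classes with under 15 cells in a library were given no ratio. Members were named in every class, related genes as the top 5 by CPM or past 2-fold, and likeness by log2(CPM + 10) over genes with at least 50 UMIs. The ratio and naming steps were run on simulated data. The ratio check drew Poisson counts without spread between cells or animals. The naming check drew cells from the summed profiles of the named classes themselves. Neither therefore covers such spread or a wrong class name. Depth differs between cells and classes, and low counts limit precision most for Angpt1, Angpt2 and Tek.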

Additional observations from a re-analysis of the deposited data

Results flagged for a closer look

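Barcodes left out by the cell filters (276 in LIP, 286 in control) were used in no comparison above. They are pooled here over all cell types, so cell makeup and level cannot be told apart. The share of all genes with such differences was not computed, so the values say nothing particular about the 10 genes. The log2 ratio of LIP over control was 0.80 for Vegfa (0.38 to 1.23), 1.48 for Kdr (1.02 to 1.96), 3.41 for Flt1 (2.82 to 4.06), 2.92 for Tek (2.02 to 3.97) and 1.84 for Pdgfb (1.19 to 2.55). The other direction was found for Angpt2 at -1.08 (-1.93 to -0.27), Notch3 at -0.58 (-0.88 to -0.28) and Jag1 at -0.33 (-0.62 to -0.05), while the intervals of Angpt1 and Pdgfrb spanned 0. Flt1 stood at 86.8 CPM in the left-out LIP barcodes and 8.15 CPM in the left-out control barcodes. In kept cells pooled over all classes Flt1 was also higher in LIP, at 89.7 against 46.0 CPM, while it was lower within vascular endothelial-like cells.

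For 2 genes the direction past 2-fold differed between classes, and that difference was not tested. Flt1 was higher in LIP in epithelial-like cells (log2 ratio 6.59, 4.03 to 11.93, with 39 UMIs against 1) and lower in macrophage-like cells (-2.11, -3.57 to -0.75, with 8 UMIs against 14). In the epithelial-like class, 34 of the 39 UMIs lay in 2 cells with 36 and 33 UMIs of Pecam1, 41 and 42 of Cdh5 and 1 each of Krt5. That ratio was 2.25 (-2.02 to 8.13) when the cells were clustered anew without the doublet-marked ones, and at resolution 0.3 or without the richest cell at least 1 library was at 0 UMIs of Flt1, so no ratio was given. Jag1 was lower in LIP in fibroblast-like cells (-1.22, -2.45 to -0.15) and higher in macrophage-like cells, where control had 0 UMIs. There the floor of 3 UMIs gives a bound of 2.47 on the log2 scale, and the counting interval reached down to 2.11. The makeup of the macrophage-like class differed between the libraries, and its part in the Flt1 and Jag1 values was not tested.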

How the results depend on the processing

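No paired analysis was possible because there was 1 library per condition and no test, and for the same reason no replicate could be left out. Of 863 values recomputed under other settings, 749 stayed within the counting interval or within 1.5 times of a count. The main results were the macrophage-like Vegfa and mural-like Pdgfrb ratios, the Vegfa, Kdr and Pdgfb shares, the 2-fold counts and the highest classes. Naming each cell on its own moved 6 of them and left 2, while resolution 0.05 and merging without integration moved none. At a mitochondrial limit of 5%, 30 of the other values moved and 31 stayed. Among ratios past 2-fold, 1 turned sign, Pdgfrb in epithelial-like cells, at -0.39 on the log2 scale with each cell weighing the same. A further 10 ratios under 2-fold, all with intervals that spanned 0, turned sign in some setting, down to -1.46 for Pdgfb and -0.74 for Notch3 in epithelial-like cells, -0.63 for Vegfa in neutrophil-like cells and -0.23 for Angpt2 in mural-like cells. The 9 higher combinations became 5 at resolution 0.3, 4 with each cell named on its own, 15 with at least 10 UMIs and 3 with at least 50 UMIs, and the 4 lower became 7, 7, 1 and, with a 1.5-fold line, 8 (own naming, 10 UMIs, 50 UMIs, 1.5-fold). A lower UMI limit or fold line lets more of all genes through, and the share of all genes was not computed under these settings. The counts therefore say nothing particular about the members. With each cell weighing the same, Pdgfrb in mural-like cells was at 0.68. Own naming gave 0.63 for the Vegfa ratio and 5.50% for the Vegfa share of macrophage-like cells in LIP, since 19 LIP cells took the osteoclast name and 9 the lymphatic name, which rested on Pdpn alone. That Vegfa share was 39.4% at a mitochondrial limit of 5%. The Kdr share of vascular endothelial-like cells in LIP was 80.6% at that limit, 89.8% with own naming and 90.2% without the richest cell, and the Pdgfb share was 66.7% and 66.5% under the last pair. At the 5% limit 6 of 10 members kept their highest class, because under 15 mural-like cells were left in a library, and no ratio was had there for mural-like, osteogenic-like or B-like cells. Related genes past the fold in vascular endothelial-like cells ranged from 0 to 4 in each direction, again with no share of all genes beside them. Counts under 50 UMIs limit the low ligands.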
